A study of Mus musculus with 2 samples.

Results

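Macrophages of 2 mosaic mouse squamous cell carcinomas were ordered by the spatial codes they carried. Those with the highest ratio of the code ZC1 to the code ZC5 were compared with those with the lowest. A barcode counted as a macrophage with at least 1000 gene UMIs (unique molecular identifiers, 1 per captured RNA molecule), at least 500 genes, at most 10% mitochondrial UMIs, at least 1 Csf1r UMI, 0 Cd3e UMIs, C1qa, C1qb and C1qc together at 0.2% or more of gene UMIs, and at least 50 code UMIs. This rule kept 2987 barcodes in replicate 1 and 3202 in replicate 3, in all 6189 of the 11552 barcodes that passed the UMI, gene and mitochondrial limits. Within each tumour the sides were chosen by code counts: the macrophages were ranked by log2((ZC1 + 1)/(ZC5 + 1)) and cut into 4 equal bins, and the top bin (746 and 800 cells, the ZC1 side) was set against the bottom bin (747 and 801 cells, the ZC5 side).

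Both samples belong to 1 group of untreated FVB mice with subcutaneous tumours grown from co-injected CIT6 cells, marked with YFP, and CIT9 cells, marked with RFP. Tumour sections were labelled with light-printed codes (ZipSeq), digested with collagenases and sorted by the leukocyte surface protein CD45, and the 10x 3' v3 libraries were counted together with the codes. Replicate 1 carried the codes ZC1, ZC2 and ZC5, and replicate 3 the codes ZC1, ZC5 and ZC6. The labels do not say which code was printed on YFP+, RFP+ or mixed areas, nor whether ZC1 and ZC5 mark the same kind of area in both tumours, nor whether the tumours came from separate animals. The p-values measure only the spread between these tumours and their bins, which may be technical.

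Macrophages take up dead cells, present antigen and secrete chemokines that draw other leukocytes into a tumour. Csf1r is the receptor for the growth factor they depend on, and C1qa, C1qb and C1qc encode the chains of the complement protein C1q. Part of a tumour's macrophages descend from Ly6c2+ Ccr2+ blood monocytes, and genes such as Folr2, Cbr2, Gas6 and Vcam1 are typical of macrophages settled in the tissue. Type I interferon, which cells make when nucleic acids are sensed, switches on genes such as Isg15 and Rsad2, and ligands of the receptor Cxcr2 such as Cxcl1 and Cxcl3 attract neutrophils.

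The label macrophage held for genes the rule did not use. Cd68, a lysosomal protein of phagocytes, was found in 97.9% of the chosen barcodes of replicate 1 and 98.8% of those of replicate 3, against 48.1% and 68.4% of the other 1774 and 3320 barcodes. Adgre1, which encodes F4/80, was found in 87.5% and 95.2%, against 23% and 43.6%. Of 6 keratinocyte and carcinoma markers, Krt5 and Trp63 had 0 UMIs in the chosen barcodes of both tumours, and Krt14, Krt8 and Krt18 were each found in at most 0.718% of them. Epcam was found in 2.48% and 3.22%, against 6.31% and 6.96% of the other barcodes. The medians of gene UMIs per cell lay between 18827 and 19905 over the bins of replicate 1 and between 23952 and 25704 over those of replicate 3, and 4 cell barcodes occurred as macrophages in both tumours. Levels below are given in CPM, the UMIs of a gene scaled by all gene UMIs of its summed bin, with exact 95% Poisson intervals that cover counting error only.

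The code ratio chose the sides and is given as a description. In replicate 1 the median log2 ratio was -0.38 (SD 0.86 over cells), and 33.7% of macrophages had more ZC1 than ZC5. In replicate 3 the median was -1.70 (SD 0.71), and 1.62% (52 cells) had more ZC1 than ZC5. The top bin of replicate 1 held medians of 409 ZC1 and 224 ZC5 UMIs per cell and its bottom bin 118 and 278. The top bin of replicate 3 held 27 ZC1 and 50 ZC5 UMIs and its bottom bin 20 and 119. Most code UMIs of replicate 3 were ZC6 on both sides, 63.9% in the top bin and 60.6% in the bottom bin. ZC1 made up 14.4% and 5.67% of them, and ZC5 21.6% and 33.7%. Thus the ZC1 side of replicate 3 was rich in ZC1 only relative to the other macrophages of that tumour, and 6.5% of its cells had more ZC1 than ZC5. Expected counting variance of the ratio was 4.25% of its variance in replicate 1 and 30.3% in replicate 3. The top bin began at 0.2364 in replicate 1, where the first cell outside had 0.2345, and at -1.264 in replicate 3, where the first cell outside had -1.268. The bottom bin ended at -0.8986 and the next cell had -0.898 in replicate 1, and in replicate 3 12 cells were tied at the limit of -2.115. The median counts of all 3 codes of a tumour were above 0 in every bin, and the UMIs of ZC1 and ZC5 per cell went up together (Spearman 0.826 over 2987 cells and 0.883 over 3202 cells, which share their library and their code depth).

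**Figure D1:**
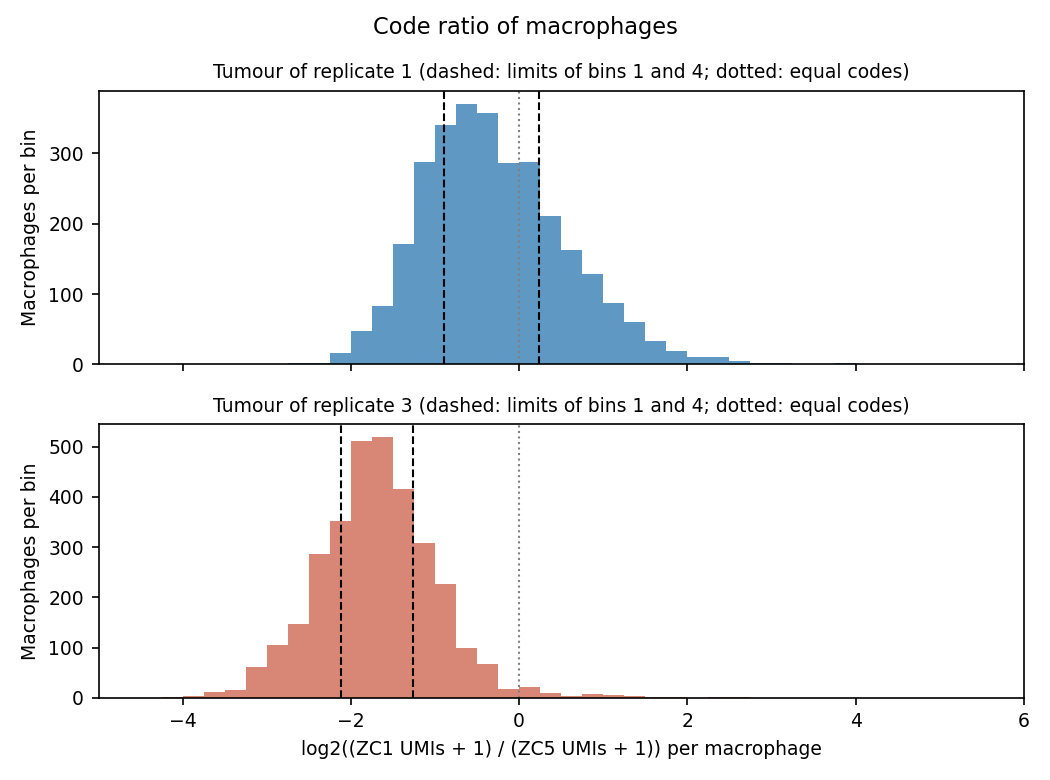
Number of macrophages (vertical axis) by log2 ratio of ZC1 to ZC5 UMIs (horizontal axis, bins of 0.25) in each tumour, with dashed lines at the limits of the bottom and top bins. Each tumour shows a single peak, and nearly all macrophages of replicate 3 lie left of 0, where the codes are equal.

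On the ZC1 side 8 genes were higher and 0 were lower among 12623 genes tested (edgeR's quasi-likelihood F-test with the tumour as a block, adjusted p under 0.05), which is 0.0634% and 0% of the genes tested. At an unadjusted p under 0.05, 385 genes were higher (3.05%) and 247 lower (1.96%), and DESeq2 called 12 higher and 0 lower, among them 4 of the 8 genes (Cd24a, Cxcl1, Cxcl3 and S100a8). The 8 genes were the chemokines Cxcl1 and Cxcl3, the neutrophil granule and secreted genes S100a8, S100a9, Retnlg and Wfdc21, the surface glycoprotein gene Cd24a and the kallikrein Klk1. When only macrophages with fewer than 3 UMIs summed over markers of neutrophils, T, NK, B, mast, dendritic and epithelial cells were kept, a limit added after seeing the data, 3 of 11763 genes passed (0.0255%). These were Cxcl1, higher, and the interferon-stimulated genes Isg15 and Rsad2, lower. Some markers of this limit were more frequent in the macrophages than in the other barcodes. Csf3r was found in 37.9% and 36.2% of macrophages against 31.7% and 14.8%, and Cd79b in 21.5% and 39.7% against 7.78% and 17.1%. The limit may thus also drop macrophages for transcripts of their own, which was not tested. Few UMIs of other cell types refers below to this limit. When barcodes with any UMI of Cd3g, Nkg7, Cd79a or Epcam, or over 5 of S100a8 or Krt14 (mixed markers), were left out instead, Retnlg, Klk1 and Atp1b1 were called higher and Isg15 and Rsad2 lower.

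Cxcl1 encodes a ligand of Cxcr2 that attracts neutrophils. Its level was 106 CPM (100.5 to 111) on the ZC5 side and 144 CPM (138 to 150) on the ZC1 side of replicate 1, and 128 CPM (124 to 133) and 171 CPM (165 to 176) in replicate 3. Both tumours were higher on the ZC1 side, by nearly the same log2 difference of 0.44 and 0.41, although the ZC1 side of replicate 1 and the ZC5 side of replicate 3 lay close to each other. The fitted log2 fold change was 0.43 ± 0.05 (SE, adjusted p = 0.0278). Among macrophages with few UMIs of other cell types it was 0.66 ± 0.07 (adjusted p = 0.00548), with 108 against 167 CPM in replicate 1 and 130 against 205 CPM in replicate 3. Without the barcodes of mixed markers it was 0.40 and did not pass (adjusted p = 0.248). The direction held in all 24 alternatives tried, but the call was kept in 10 of them, with adjusted p from 0.000166 to 1.

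Cxcl3, a neighbour of Cxcl1 on chromosome 5 and another Cxcr2 ligand, was at 28.1 CPM on the ZC5 side and 71.8 CPM on the ZC1 side of replicate 1, and at 2.04 and 3.90 CPM in replicate 3. The tumours differed far more from each other than their sides did. The log2 fold change was 1.28 ± 0.12 (SE, adjusted p = 0.00567). Among macrophages with few UMIs of other cell types the level on the ZC1 side of replicate 1 was 7.47 CPM against 4.65 on the ZC5 side, and the log2 fold change of 0.73 did not pass (adjusted p = 1).

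The upstream sequences of both chemokine genes are shown because these were the members of the chemokine list that passed. They run 250 bases up to the RefSeq start on the plus strand of GRCm38.p6, at chr5:90890995-90891244 for Cxcl1 and chr5:90785851-90786100 for Cxcl3, and the capitals mark GGGAATTTCCC, the longest run of bases that the windows share, which is of the kind bound by NF-kappaB. It was searched on both strands of all promoter windows after these had been seen.
Cxcl1: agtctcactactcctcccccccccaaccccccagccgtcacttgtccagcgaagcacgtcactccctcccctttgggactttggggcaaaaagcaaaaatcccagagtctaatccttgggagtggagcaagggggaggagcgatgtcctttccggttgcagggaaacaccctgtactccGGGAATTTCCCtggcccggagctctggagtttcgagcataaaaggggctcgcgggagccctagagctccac
Cxcl3: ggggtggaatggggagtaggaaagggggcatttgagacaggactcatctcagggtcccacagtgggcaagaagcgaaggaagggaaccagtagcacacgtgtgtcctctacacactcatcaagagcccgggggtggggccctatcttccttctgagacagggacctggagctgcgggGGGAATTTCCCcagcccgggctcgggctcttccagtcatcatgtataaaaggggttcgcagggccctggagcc
Each window held 1 match, and 14 of 32851 promoter windows of the same length held at least 1 (0.0426%). A match is a description of the sequence and not evidence of binding in these cells.

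S100a8 and S100a9 encode the calprotectin subunits that fill neutrophils. S100a8 was at 221 CPM (213 to 229) on the ZC5 side and 1018 CPM (1003 to 1034) on the ZC1 side of replicate 1, and at 3.32 CPM (2.61 to 4.16) and 12.9 CPM (11.5 to 14.5) in replicate 3. The fitted log2 fold change was 2.15 ± 0.18 (SE, adjusted p = 0.00357), and that of S100a9 was 1.96 ± 0.25 (adjusted p = 0.0372). The S100a9 levels were 240 and 1118 CPM in replicate 1 and 6.51 and 14.1 CPM in replicate 3. In replicate 3 a single barcode supplied 60.0% of the S100a8 UMIs of the ZC5 side and a single barcode 60.3% of those of the ZC1 side, and without the largest barcode of each side the S100a9 difference there was 0.13 on the log2 scale.

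Retnlg, a resistin-like gene of neutrophils, was at 5.21 and 89.4 CPM in replicate 1 and had 0 UMIs and 1 UMI on the sides of replicate 3. Wfdc21 was at 2.94 and 25.5 CPM in replicate 1 and had 0 and 10 UMIs in replicate 3. Their fitted log2 fold changes of 4.07 ± 0.30 (adjusted p = 0.00272) and 3.19 ± 0.37 (adjusted p = 0.0239) therefore rest on replicate 1. Klk1, a kallikrein protease gene with close relatives among which reads may be split, had 49 and 251 UMIs on the sides of replicate 3 and 0 and 2 in replicate 1. A single barcode gave 42.6% of the 251 UMIs, 14 barcodes gave all of them, and the log2 fold change of 2.38 ± 0.28 (adjusted p = 0.0239) rests on replicate 3. It was -0.021 when cells were ranked by ZC1 as a share of all codes and -0.43 in cells with a low share of the third code. Cd24a, found on granulocytes, dendritic cells and B cells among others, was at 3.94 and 20.4 CPM in replicate 1 and at 1.86 and 6.38 CPM in replicate 3 (log2 fold change 2.12 ± 0.20, adjusted p = 0.00612). Among macrophages with few UMIs of other cell types Cd24a, S100a8 and S100a9 did not pass, with log2 fold changes of 0.43, 0.07 and 0.22, and Retnlg, Wfdc21 and Klk1 were too low to be tested. S100a8, S100a9 and Retnlg are themselves among the markers of that limit, so their results in this set were largely fixed by it.

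**Figure D2:**
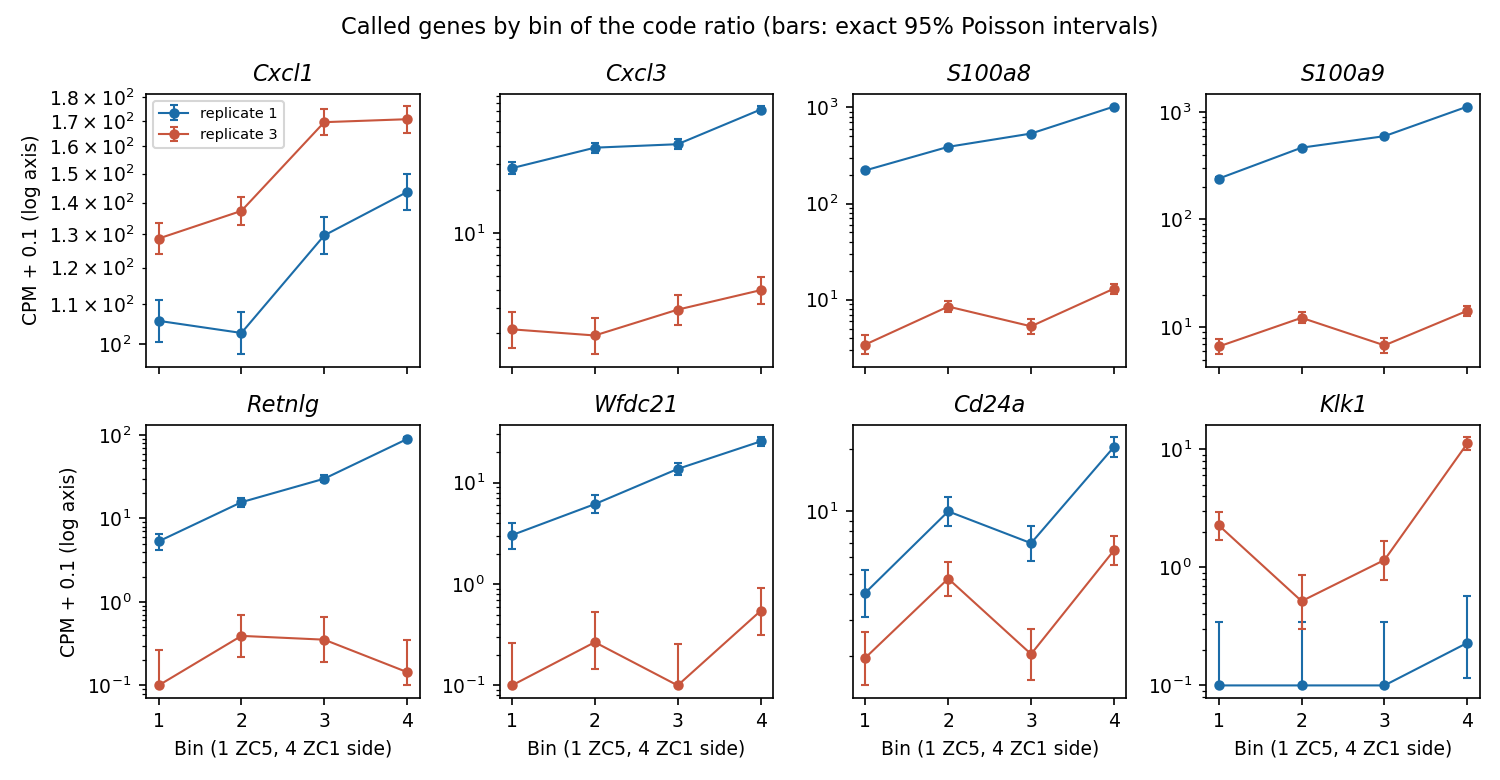
CPM plus 0.1 on a log axis (vertical, a separate scale in each panel) for the 8 called genes in the 4 bins of the code ratio (horizontal), with exact 95% Poisson intervals as bars and 1 colour for each tumour. Cxcl1 lies between 103 and 171 CPM in both tumours, while S100a8, S100a9, Retnlg and Wfdc21 are far lower in replicate 3 than in replicate 1 and Klk1 is nearly absent from replicate 1.

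Markers of neutrophils and conventional dendritic cells were, like these genes, higher on the ZC1 side of both tumours. Markers of T cells, NK cells and monocytes were so in replicate 1 only. The 5 neutrophil markers together came to 504, 905, 1208 and 2298 CPM from the first to the last bin of replicate 1, and to 28.0, 42.3, 33.6 and 49.9 CPM in replicate 3. Macrophages with more than 5 S100a8 UMIs were 3.08% of the ZC5 side and 12.9% of the ZC1 side in replicate 1, and 0.25% and 0.75% in replicate 3. The 7 conventional dendritic cell markers came to 8.09 and 19.8 CPM on the ZC5 and ZC1 sides of replicate 1 and to 11.6 and 23.8 CPM in replicate 3, and all 7 had UMIs in each of these sums. T cell markers came to 6.15 and 16.2 CPM and NK cell markers to 5.08 and 15.1 CPM in replicate 1, against 12.2 and 7.18 CPM and 7.30 and 2.83 CPM in replicate 3. Monocyte markers came to 174 and 277 CPM in replicate 1 and to 442 and 416 CPM in replicate 3. Fibroblast markers went the other way in replicate 1, at 99.7 and 34.3 CPM, but not in replicate 3, at 15.5 and 19.8 CPM. In droplets of 20 to 100 UMIs, which hold mostly free RNA, S100a8 was at 619 CPM in replicate 1 and 30.4 CPM in replicate 3, and the log2 ratio of ZC1 to ZC5 was 0.58 and -1.10, above the macrophages' median in both tumours. With only the macrophages that had fewer than 3 marker UMIs, S100a8 was at 8.49 and 7.87 CPM in replicate 1, a value the limit sets in part because S100a8 is among its markers. What share of the S100a8, S100a9, Retnlg, Wfdc21, Cxcl3 and Cd24a differences came from other cells or from free RNA was not tested.

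Lcn2 and Xcr1, named after their values were seen, did not pass. Lcn2, a neutrophil gene that encodes the iron-scavenging lipocalin, was at 0.802 and 8.21 CPM in replicate 1, had 1 and 4 UMIs on the sides of replicate 3 and had an adjusted p of 0.0983. Xcr1, the chemokine receptor that marks cross-presenting dendritic cells, was at 0.334 and 2.00 CPM in replicate 1 and at 0.797 and 3.32 CPM in replicate 3 (adjusted p = 0.0604). The 75 Xcr1 UMIs on the ZC1 side of replicate 3 came from 8 barcodes.

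**Figure D3:**
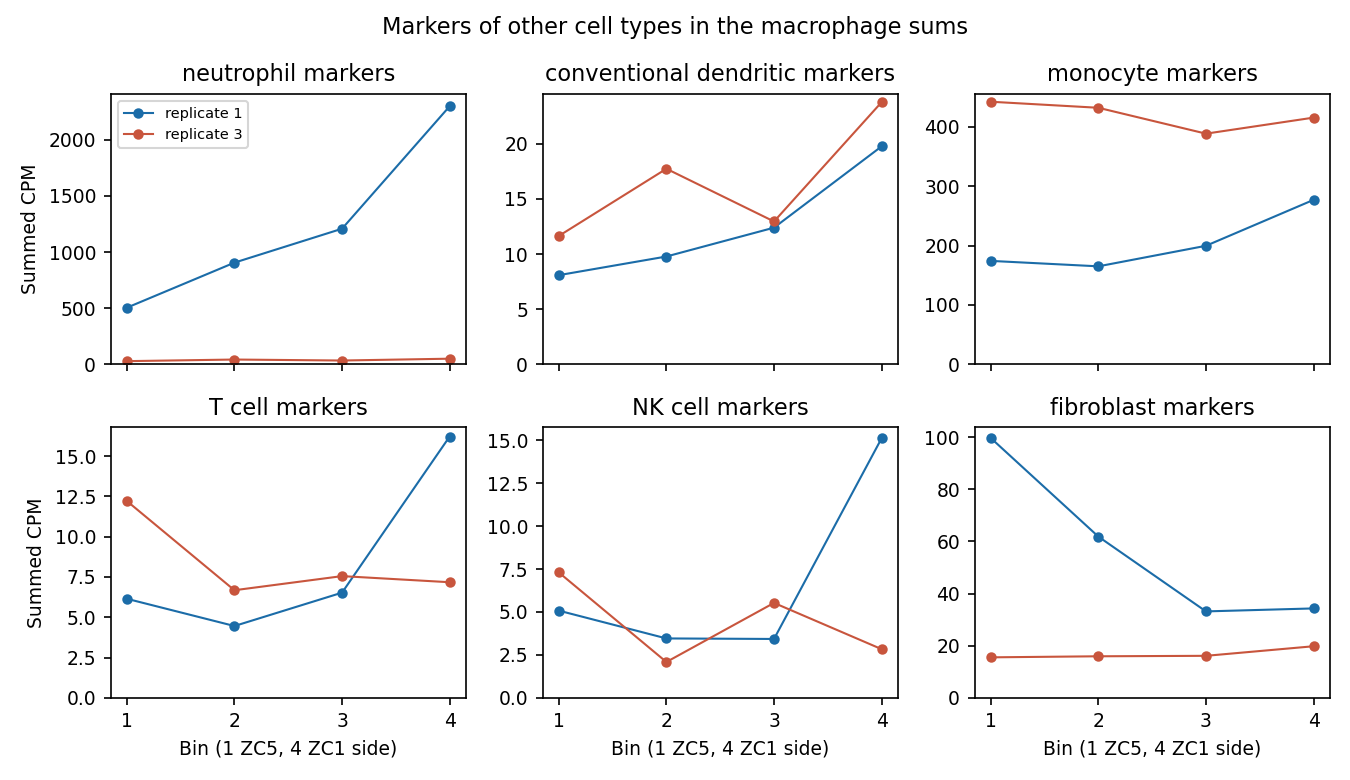
Summed CPM of the markers of 6 other cell types (vertical axis, from 0) in the macrophage sums of the 4 bins (horizontal axis), 1 line for each tumour. Neutrophil markers go from 504 to 2298 CPM in replicate 1 and stay at or under 49.9 CPM in replicate 3, and fibroblast markers go from 99.7 to 34.3 CPM in replicate 1.

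Myeloid-attracting chemokines lay mostly toward the ZC1 side. Of 13 list members tested 2 passed, Cxcl1 and Cxcl3, both higher, and 7 were higher at an unadjusted p under 0.05 (3.05% of all genes) and 0 lower. The median log2 fold change of the list was 0.18, against -0.0017 over all genes tested, and 8 members were higher in both tumours, a direction that 22.8% of all genes had. Without the barcodes of mixed markers 0 of the 13 passed and 6 were higher in both, a direction that 23.9% of the genes tested had. Cxcl2 was at 1657 and 2622 CPM in replicate 1 and at 1342 and 1490 CPM in replicate 3 and did not pass (adjusted p = 0.494). Ccl3 was at 148 and 205 CPM in replicate 1 and at 80.4 and 101 CPM in replicate 3 (adjusted p = 0.618), and Ccl4, another chemokine, at 121 and 141 CPM and at 63.0 and 103 CPM (adjusted p = 0.678). Ccl2, which draws monocytes through Ccr2, was nearly even, at 247 and 267 CPM in replicate 1 and 452 and 473 CPM in replicate 3 (adjusted p = 0.959).

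Type I interferon-stimulated genes lay toward the ZC5 side in both tumours. Of these, 2 passed the test once macrophages with 3 or more UMIs of the markers listed for other cells were left out. Of 20 members tested 0 passed in the full set, while 10 were lower at an unadjusted p under 0.05 (1.96% of all genes) and 0 higher. In both tumours 14 of the 20 were lower, a direction that 22.4% of all genes had, and the list's median was -0.39 in replicate 1 and -0.18 in replicate 3. Isg15, an antiviral ubiquitin-like protein, was at 105 CPM (100.3 to 111) on the ZC5 side and 75.2 CPM (71.0 to 79.7) on the ZC1 side of replicate 1, and at 103 CPM (98.5 to 107) and 80.3 CPM (76.7 to 84.1) in replicate 3. Its levels on the ZC5 sides did not overlap those on the ZC1 sides, and its log2 fold change of -0.42 ± 0.09 did not pass (adjusted p = 0.285). The second bins, at 60.1 and 80.4 CPM, lay below or close to the last, so the levels did not follow the order of the bins.

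Among macrophages with fewer than 3 UMIs of other markers, Isg15 fell from 89.0 to 63.0 CPM in replicate 1 and from 103 to 71.2 CPM in replicate 3 (log2 fold change -0.50 ± 0.06, adjusted p = 0.0250). Rsad2, which encodes the antiviral enzyme viperin, fell from 61.1 to 22.3 CPM and from 14.5 to 6.58 CPM (log2 fold change -1.34 ± 0.16, adjusted p = 0.0166). In that set 12 of 20 members were lower at an unadjusted p under 0.05, against 1.67% of the genes tested. There 16 were lower in both tumours, a direction that 20.4% of the genes tested had. Leaving out the barcodes of mixed markers also called both genes lower, with log2 fold changes of -0.58 (adjusted p = 0.0170) for Isg15 and -1.43 (adjusted p = 0.00442) for Rsad2. In the full set Rsad2 was at 62 and 23.8 CPM in replicate 1 and at 10.8 and 9.35 CPM in replicate 3 (adjusted p = 0.873), and single barcodes held 16.5% and 31.8% of its UMIs on the sides of replicate 1. Single barcodes held 23.3% and 15.2% on those of replicate 3. Rsad2 was found in 47 and 42 macrophages on the sides of replicate 1 and in 26 and 33 in replicate 3. Isg15 was found in 32.1% and 35.1% of macrophages in replicate 1 and in 48.7% and 43.9% in replicate 3. For neither gene did the share of macrophages with a UMI fall in both tumours. When macrophages were ranked by ZC1 as a share of all codes instead, the median of the list turned to 0.37 in replicate 3 and stayed at -0.60 in replicate 1, so its direction in replicate 3 depends on the measure. With the highest and lowest 10% of macrophages in place of the outer bins its medians were -0.50 and 0.02.

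Other lower genes with the smallest p and the same direction in both tumours did not pass either. Rtp4, another interferon-stimulated gene, was at 29.7 and 22.1 CPM in replicate 1 and at 42.4 and 34.0 CPM in replicate 3 (adjusted p = 0.282). Ifih1, a sensor of double-stranded RNA, was at 27.1 and 20.2 CPM and at 23.3 and 18.9 CPM (adjusted p = 0.292). Gm10522 was at 17.0 and 9.69 CPM and at 3.67 and 1.82 CPM (adjusted p = 0.128), and Unc5b, a netrin receptor, at 7.22 and 2.97 CPM and at 0.930 and 0.531 CPM (adjusted p = 0.282). Of 19 interferon-gamma-linked genes 0 passed or had an unadjusted p under 0.05, 7 were lower in both tumours (22.4% of all genes) and 2 higher in both, with a median of -0.05. With the barcodes of mixed markers left out, 4 of 19 were lower at an unadjusted p under 0.05 and 0 higher. Over all 12180 genes tested there, 224 were lower and 308 higher at that limit.

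Hypoxia and glycolysis genes had small differences toward the ZC1 side. Of 20 members 0 passed and 8 were higher at an unadjusted p under 0.05 (3.05% of all genes), 15 were higher in both tumours (22.8% of all genes), and the medians were 0.13 and 0.10. Egln3, an oxygen-sensing hydroxylase, had log2 differences of 0.44 and 0.59 (adjusted p = 0.322), and Hk2, a hexokinase, 0.18 and 0.32 (adjusted p = 0.791). Slc2a1, the glucose transporter, was at 123 and 146 CPM in replicate 1 and at 51.8 and 51.1 CPM in replicate 3, and Vegfa, a vascular growth factor, at 204 and 199.6 CPM and at 73.2 and 80.0 CPM. Among macrophages with few UMIs of other cells 10 of 20 were higher at an unadjusted p under 0.05, against 2.22% of the genes tested.

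Among well-counted macrophage genes, side differences of opposite sign in the 2 tumours were more common than those of the same sign, and most were small. Over 3685 genes with a mean of at least 30 CPM in both tumours, a floor set after seeing the values, the log2 differences of the tumours had a Pearson correlation across genes of -0.256, and 40.3% of genes had the same sign. Over all 12623 genes tested the correlation was only -0.0441, and 45.2% had the same sign. These points share their libraries and are not independent. With a fold of 1.2 or more, 123 of the 3685 genes were higher (3.34%) and 69 lower (1.87%) on the ZC1 side of replicate 1, and 51 higher (1.38%) and 22 lower (0.597%) in replicate 3. There were 28 genes past that fold in opposite directions and 6 in the same direction. The latter were Cxcl1, Ccl3, Ccl5 and Wfdc17, higher, and Isg15 and Hist1h2ae, lower. Each of 14 alternative cell sets and rankings gave more genes in opposite than in the same direction, and a correlation from -0.374 to -0.0966. With 1 tumour on each side of this contrast there is no test, and whether it reflects the areas printed with each code cannot be told apart from other differences between the tumours.

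**Figure D4:**
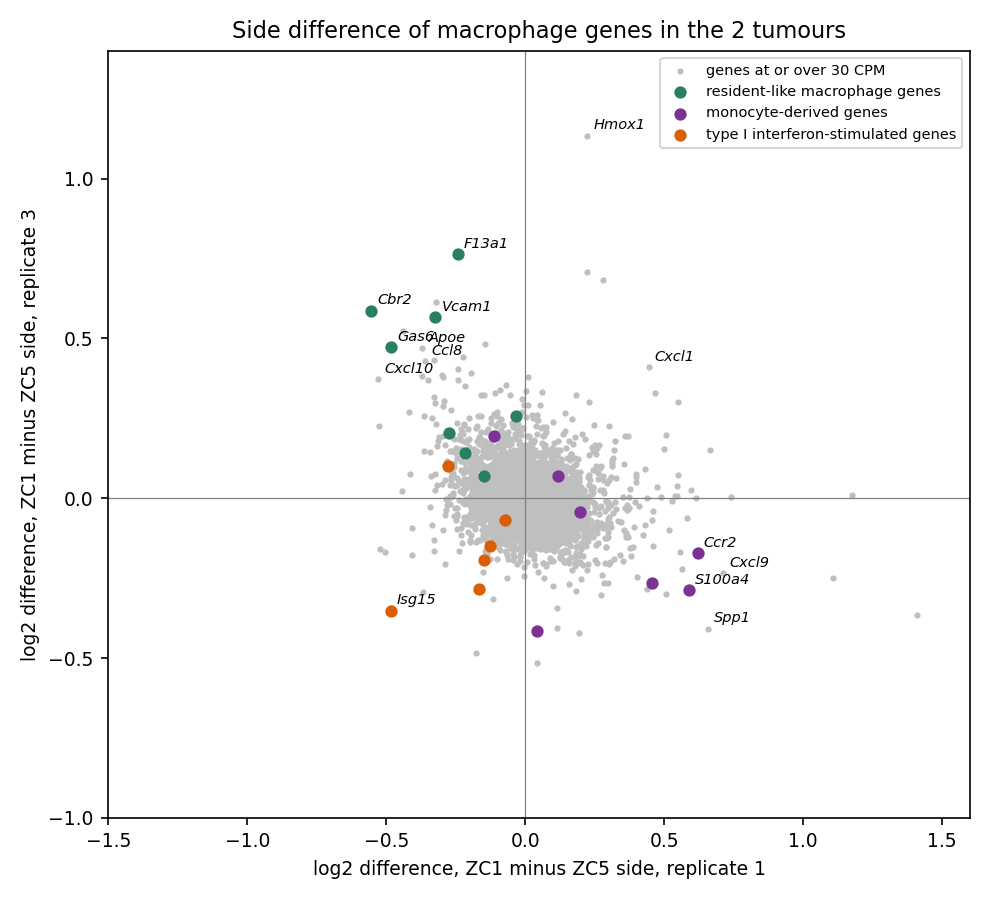
Log2 difference between the ZC1 and ZC5 sides in replicate 1 (horizontal axis) and in replicate 3 (vertical axis) for 3685 genes with a mean of at least 30 CPM in both, grey, with 3 gene lists in colour. Resident-like genes such as Cbr2, Gas6 and Vcam1 lie at the upper left, Spp1, S100a4 and Ccr2 at the lower right, Cxcl1 at the upper right and Isg15 at the lower left.

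Genes typical of settled tissue macrophages mostly had opposite signs in the 2 tumours. Of 15 resident-like members 13 were lower on the ZC1 side of replicate 1 and higher on that of replicate 3, a direction that 27.4% of all genes had, the other 2 were higher in both, and 0 passed the test. The medians were -0.22 and 0.57. With the barcodes of mixed markers left out, 7 of 15 had that direction (26.7% of the genes tested) and 7 were higher in both (23.9%). The median in replicate 1 was then -0.07. Among macrophages with few UMIs of other cells 11 of 15 had the opposite signs (27.5% of the genes tested). The lean in replicate 1 thus depended on which barcodes were kept. Cbr2, a carbonyl reductase, was at 73.0 CPM (68.8 to 77.5) and 49.6 CPM (46.2 to 53.3) in replicate 1 and at 37.9 CPM (35.4 to 40.5) and 56.9 CPM (53.8 to 60.1) in replicate 3. Gas6, a bridging protein for the uptake of dead cells, was at 176 and 126 CPM and at 47.3 and 65.6 CPM. Vcam1, an adhesion molecule, was at 122 and 97.3 CPM and at 33.6 and 49.8 CPM, and went step by step over the 4 bins in both tumours. F13a1, a coagulation factor subunit made by macrophages, was at 199.6 and 168 CPM and at 45.9 and 77.9 CPM. Folr2, a folate receptor, was nearly even in replicate 1, at 96.3 and 93.8 CPM, and at 84.6 and 101 CPM in replicate 3, and Mrc1, the mannose receptor, was at 586 and 521 CPM and at 283 and 317 CPM.

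Apoe, which carries lipids out of macrophages, showed the same pattern at high counts, going step by step over the 4 bins from 32220 to 24877 CPM in replicate 1 and from 14062 to 19445 CPM in replicate 3. Selenop, a secreted selenium carrier, was at 1425 and 1132 CPM and at 900.3 and 1214 CPM, and Fabp5, a fatty acid carrier, at 1060 and 831 CPM and at 396 and 512 CPM. Among chemokines Ccl8 was at 902 and 701 CPM and at 754 and 1015 CPM, and Ccl12 at 456 and 371 CPM and at 674 and 823 CPM. Trem2, a lipid-sensing receptor, differed little, at 584 and 510 CPM and at 544 and 571 CPM, and Gpnmb had at most 3.61 CPM in any bin. C1qa, which helped choose the cells and gets no test, was at 7004 and 6193 CPM and at 6058 and 6647 CPM.

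The reverse held for Spp1 and for several genes of recently arrived monocytes. Spp1, which encodes osteopontin, was at 258 CPM (250 to 266) and 405 CPM (396 to 416) in replicate 1 and at 745 CPM (734 to 756) and 561 CPM (551 to 571) in replicate 3, and with few UMIs of other cells at 230 and 461 CPM and at 797 and 554 CPM. S100a4 and S100a6, calcium-binding proteins of monocytes, were at 222 and 334 CPM and 583 and 799.6 CPM in replicate 1, and at 1414 and 1157 CPM and 1290 and 1073 CPM in replicate 3. Ccr2, the monocyte chemokine receptor, was at 152 and 233 CPM and at 378 and 335 CPM. Ly6c2, the monocyte surface marker, was at 0.601 and 10.8 CPM in replicate 1 and at 8.10 and 11.9 CPM in replicate 3 (log2 fold change 1.57 ± 0.63, adjusted p = 0.958). Of 14 monocyte-derived members 0 passed, 6 were higher in replicate 1 and lower in replicate 3 (27.4% of all genes), nearly as many (5) were higher in both (22.8% of all genes), and the medians were 0.52 and -0.03.

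The ligands of Cxcr3, which guide T and NK cells, ran against each other. Cxcl9 was at 90.9 CPM (86.1 to 95.8) and 149 CPM (143 to 155) in replicate 1 and at 250 CPM (243 to 256) and 212 CPM (206 to 218) in replicate 3 (log2 fold change 0.23 ± 0.19, adjusted p = 0.974). Cxcl10 was at 109 and 75.2 CPM in replicate 1 and at 143 and 185 CPM in replicate 3 (log2 fold change -0.05 ± 0.17, adjusted p = 0.996). Thus Cxcl9 was higher on the side that had less Cxcl10 in both tumours. Ccl5 was at 104 and 152 CPM and at 47.6 and 58.6 CPM, with lower values in the middle bins of replicate 1 (51.3 and 49.7 CPM).

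**Figure D5:**
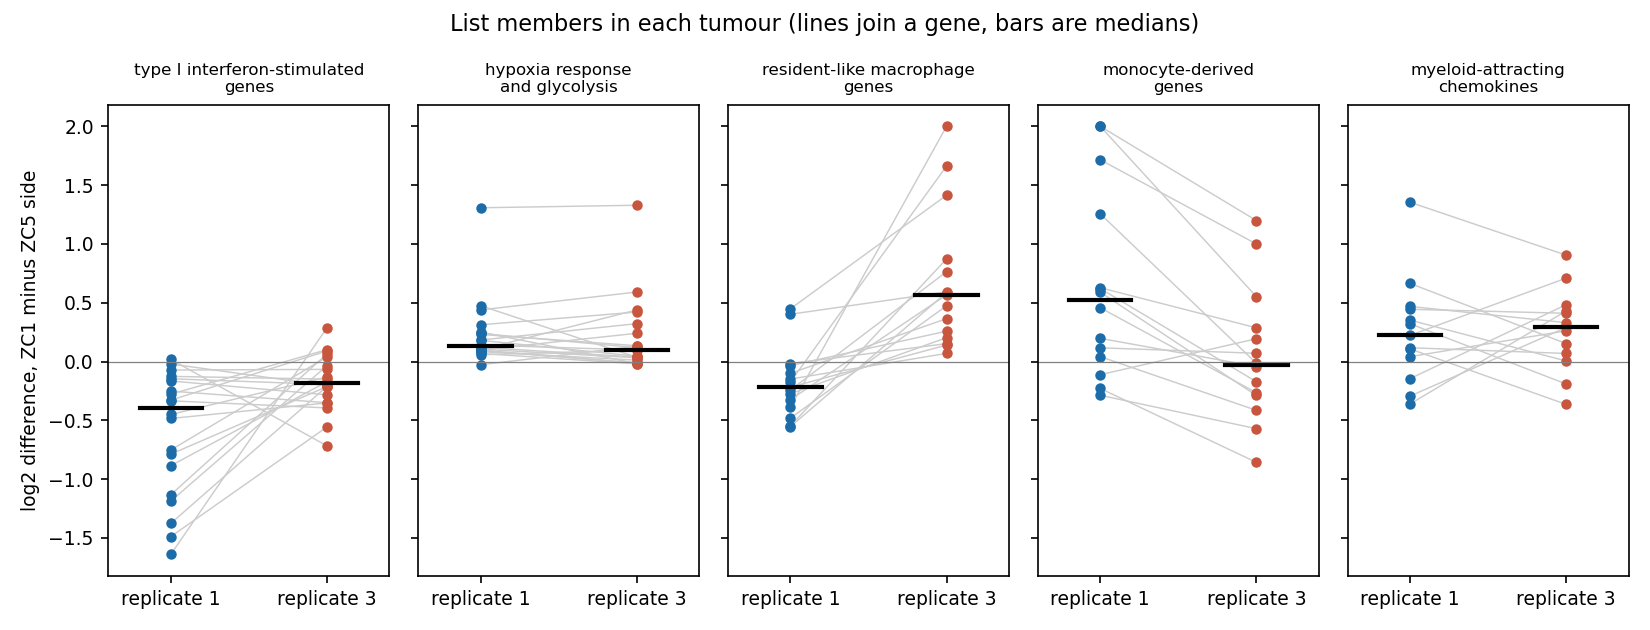
Log2 difference between the ZC1 and ZC5 sides (vertical axis) of the tested members of 5 gene lists in each tumour (horizontal axis), with a line for each gene and a black bar at the median; members beyond 2 are drawn at 2. Interferon-stimulated genes lie mostly under 0 in both tumours, hypoxia genes mostly over 0 in both, and resident-like genes under 0 in replicate 1 and over 0 in replicate 3.

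Lists of lipid, lysosome and energy genes held 0 members that passed, and many of their members had opposite signs in the 2 tumours. Each of these directions, lower in replicate 1 and higher in replicate 3 or the reverse, was held by 27.4% of all genes. Of 17 lipid-associated members 8 were lower on the ZC1 side of replicate 1 and higher on that of replicate 3, with medians of 0.01 and 0.23. Abca1, a cholesterol exporter, was at 331 and 289 CPM in replicate 1 and at 106 and 139 CPM in replicate 3. Of 19 lysosomal hydrolase and proton pump genes 11 had that direction, and Ctsd, a lysosomal protease, was at 1371 and 1157 CPM and at 739 and 977 CPM. Oxidative phosphorylation subunits had the reverse direction in 12 of 18 cases and genes of cholesterol and fatty acid synthesis in 10 of 17, with medians of 0.05 and -0.07 for the former and 0.02 and -0.13 for the latter. Immediate early genes, which answer fresh stimuli and also cell isolation, were higher at an unadjusted p under 0.05 in 4 of 18 cases (3.05% of all genes), with medians of 0.10 and 0.06.

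Hmox1, which breaks down haem, had the largest difference in replicate 3 among the 3685 genes, at 62.4 CPM (59.2 to 65.7) and 137 CPM (132 to 142), against 270 and 314 CPM in replicate 1. The level went up over all 4 bins of replicate 3, and 1 macrophage supplied 29.8% of the UMIs of its last bin. Without the largest cell of each side its log2 difference there was 0.64 in place of 1.13. The fitted log2 fold change was 0.67 ± 0.20 (adjusted p = 0.721).

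Genes of antigen presentation, activation and division did not pass the test. H2-Ab1, an MHC class II chain, was at 5933 and 5844 CPM in replicate 1 and at 7445 and 7375 CPM in replicate 3, and of the 11 class II members 0 passed. Il1b, an inflammatory cytokine, was at 616 and 760 CPM and at 435 and 455 CPM, and Arg1, an arginase of repair-type macrophages, at 569 and 667 CPM and at 197 and 243 CPM. Cd274, which encodes the checkpoint ligand PD-L1, was at 49.1 and 49.4 CPM and at 23.8 and 29.9 CPM. Mki67, a marker of dividing cells, was at 40.9 and 38.3 CPM and at 77.5 and 82.0 CPM, and 13 of 18 genes of G2 and mitosis were lower in both tumours (22.4% of all genes) with 0 passing. Among macrophages with few UMIs of other cells 6 of 18 were (20.4% of all genes). Cytosolic ribosomal protein genes were higher on the ZC1 side of replicate 1 and lower on that of replicate 3 in 17 of 18 cases (27.4% of all genes), with medians of only 0.05 and -0.06. Over the 29 lists, 1 held members that passed, and 436 of 456 listed genes were tested.

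The cancer cells' reporters were close to absent from the macrophages. YFP had 12 UMIs on each side of replicate 1 and 4 on each side of replicate 3. RFP had 19 and 17 UMIs in replicate 1 and 4 and 8 in replicate 3. A difference of the size of counting error could not be seen at this depth, and 29 of the 46 YFP UMIs in the second bin of replicate 1 came from 1 barcode.

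The side differences of macrophages were also tested against those of the other 5094 barcodes, ranked in the same way. Those barcodes mix cell types whose code ratios differed in replicate 1, so their sides may also differ in cell composition. The test cannot tell such a shift apart from a difference particular to macrophages. In edgeR's interaction test 0 of 13656 genes passed (0%), and 14 of the 13656 passed in DESeq2. In edgeR 731 had an unadjusted p under 0.05, close to the share that this limit gives when no gene differs. The smallest p belonged to Itgae, the integrin of cross-presenting dendritic cells and of T cells resident in tissue, with log2 differences of 3.44 and 2.04 in macrophages and -0.16 and -0.63 in the other barcodes (adjusted p = 0.146). In macrophages Itgae had 5 and 76 UMIs on the sides of replicate 1, from 5 and 23 barcodes. In replicate 3 it had 27 and 119 UMIs, from 12 and 18 barcodes. Cd24a had 2.35 and 1.72 against -0.36 and 0.52, Sept3 3.13 and 2.42 against -1.58 and -0.68, and Csf2, a growth factor, 2.29 and 4.19 against 0.72 and -0.55 (adjusted p = 0.146 for each). Sept3 also rested on few macrophages, with 3 and 43 UMIs from 2 and 8 barcodes in replicate 1. In replicate 3 Sept3 had 9 and 60 UMIs from 7 and 11 barcodes. AA467197 followed with 1.57 and 0.36 against -0.86 and -0.84. In the reverse direction Vcan, which encodes the matrix proteoglycan versican, had -0.28 and -0.56 in macrophages against 0.97 and 1.92 in the other barcodes (adjusted p = 0.146). Ikzf1, Ace and Mme came next, and Ccl2 had 0.13 and 0.08 in macrophages against 0.76 and 0.79 (adjusted p = 0.626).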

How the data were processed

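Per the file headers and the submitters' processing notes, the authors made the UMI counts with Cell Ranger 4.0 against mm10, and the deposited matrices hold whole-number counts of all listed barcodes, not restricted to cells and not normalised. The treatment of multi-mapping reads is not given in the sources used here. Macrophages were chosen by the stated rule and no doublet caller was run. Replicate 1 held 89040909 gene UMIs and 6525522 code UMIs, and replicate 3 170328781 and 4115178. UMIs were summed per tumour and bin (14963645 to 23956946 a sum), and the 4 bins of both tumours were fitted together, blocked by tumour, with 3 residual degrees of freedom: edgeR 4.0.16 (R 4.3.3, limma 3.58.1), TMM, filterByExpr, quasi-likelihood F-test, Benjamini-Hochberg adjustment over all genes tested, threshold 0.05. The interaction test added the other barcodes, ranked alike. Csf1r, C1qa, C1qb, C1qc and Cd3e chose the cells and were not tested. Standard errors were derived from the F statistic, values for 1 tumour have no test, and the fit was tested on simulated data, where more unchanged genes were called than the adjusted threshold allows, so a call here is less secure than its adjusted p states. DESeq2 1.42.0 was an alternative. Tables and figures were made with Python 3.11.15, scipy 1.17.1, numpy 2.4.6, matplotlib 3.10.9 and pandas 2.3.3.

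The members, the 29 gene lists and the tests were chosen with earlier results of these data known. Named genes were the called genes, the 5 lower genes of smallest p with the same direction in both tumours, list members that passed, a fixed set of 21, and at most 5 in each direction of the interaction. Genes named for their values in single tumours, including those over a floor of 30 CPM and a fold of 1.2, were chosen after their values were seen.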

Additional observations from a re-analysis of the deposited data

How the results depend on the processing

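The count of 8 higher and 0 lower genes changed with several choices. It was 54 higher and 7 lower without a filter on low counts, 18 and 6 with at least 200 code UMIs, 14 and 2 with only cells whose share of the third code was below the median, 3 and 2 without mixed barcodes, and 1 and 2 with fewer than 3 UMIs of other markers. It was 14 higher with a linear trend over bins, 15 with C1q at 0.5% or more, 4 with at most 5% mitochondrial UMIs, 3 with 10 added to each code and 3 when ranking within bins of code UMIs, each with 0 lower. Without the replicate block it was 0 higher and 0 lower, with 41 genes higher and 10 lower at an unadjusted p under 0.05. The causes of these changes were not tested. Ranking within bins of code UMIs kept the call of only Retnlg among the 8 genes, and also called Cd209a and Sept3. The median of code UMIs per cell was 520 on the ZC5 side and 812 on the ZC1 side of replicate 1. In replicate 3 it went the other way, with 422 and 239. The other 13 alternatives stayed within 1.5 times the count of higher genes, with 0 lower, but not all called the same genes. They kept from 4 to 8 of the 8 calls. The number kept was 4 with DESeq2, with ZC1 as a share of all codes, and with the highest and lowest 10% of macrophages. It was 8, for example, with at least 5000 gene UMIs and when ranking within bins of gene UMIs. The interaction test, with 0 genes, gave 14 in DESeq2, 11 without a filter and 3 with at least 5000 gene UMIs. Klk1 changed direction, to -0.021 with the share of ZC1 among all codes and to -0.43 in cells with a low share of the third code. Isg15 stayed lower in all 24 alternatives, from -0.58 to -0.03, and passed in 3. Leaving out 1 tumour leaves no residual degrees of freedom, so the counts have no value then; Cxcl1 ranged from 0.41 to 0.44 and S100a8 from 1.93 to 2.21. The code depth of replicate 3 limits its ranking, and 2 tumours limit every test.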

Other observations

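Other leukocytes of replicate 1 carried relatively more ZC1 than its macrophages. Barcodes with S100a8 and S100a9 at 1% or more of UMIs had a median log2 code ratio of 0.36 (421 barcodes) and those with Cd3e of 0.48 (608 barcodes), against -0.38 for macrophages. Barcodes with Ncr1, an NK cell receptor, and no Cd3e had 0.95 (118 barcodes), and those with Csf1r, no Cd3e and at least 5 UMIs of the monocyte gene Ly6c2 had 0.95 (42 barcodes). In replicate 3 the corresponding medians were -1.5 (33 barcodes), -1.74 (1097), -1.87 (232) and -1.53 (218), against -1.70 for macrophages. These are descriptions of 1 tumour each, with no test.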
